A study of Mus musculus with 6 samples.

Results

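The transcripts of 6 growth factor receptor genes, Csf1r, Csf2ra, Csf2rb, Csf2rb2, Csf3r and Flt3, were examined in dendritic cells (DC) sorted from mouse tumors. The genes were taken by name, 6 of the 23224 gene symbols in the deposited table, and all 6 were among the 13223 genes that passed the filter on low counts. The tumors were MC57-SIY, a mouse fibrosarcoma line carrying the model peptide antigen SIY, grown under the skin of C57BL/6 mice for 7 days. There were 3 groups of 2 bulk RNA-seq libraries. One held CD103+ DC1 from Rag2-/- hosts, which are conventional DC of the cross-presenting type. The second held ISG+ DC, a DC population named for interferon-stimulated genes, from Rag2-/- hosts, and the third held ISG+ DC from WT hosts. Rag2 is needed to assemble antigen receptors, and without it neither T nor B lymphocytes mature. All hosts carried the same tumor line, and no group was given a drug. Tumors were pooled, the sort gate that defines ISG+ DC is not given in the labels, and CD103+ DC1 from WT hosts were not analysed here.

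The 6 genes encode the receptors through which growth factors guide the development and survival of myeloid cells. Flt3 encodes the tyrosine kinase receptor for Flt3 ligand, which conventional DC and their precursors depend on. Csf1r encodes the tyrosine kinase receptor for M-CSF and IL-34 and is characteristic of monocytes and macrophages, although some DC also carry it. Csf2ra encodes the alpha chain that binds GM-CSF, and Csf2rb the common beta chain that signals for GM-CSF, IL-3 and IL-5 through Jak2 and Stat5. Csf2rb2 is a mouse gene for an IL-3-specific beta chain, a near copy of Csf2rb. Csf3r encodes the G-CSF receptor, best known from neutrophils and also found on monocytes.

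Libraries held between 6023510 and 15368616 estimated counts. CD103+ DC1 replicate 3 had the lowest total and stood apart, with Spearman correlations of 0.768 to 0.882 with the other libraries over the genes tested. The estimated counts of Rag2 were 39 and 11 in CD103+ DC1, 40 and 2 in the ISG+ DC libraries labelled Rag2-/-, and 0 in both WT libraries. The deleted part of the gene is not given in the labels, so these counts check no host label, and each direction between hosts rests on the labels alone. The labels name independent replicate experiments, with 2 libraries a group. The p-values rest on the spread between libraries within all groups, moderated by the spread of the other genes. They cover no variation beyond these libraries. In bulk RNA, a change in the share of cells that carry a transcript and a change in transcript per cell cannot be told apart.

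Csf2rb and Csf2rb2 lie so close in sequence that reads from one may be assigned to the other. Over the aligned coding bases they were 95.2% identical (2503 of 2628). Of the 50-base stretches of the Csf2rb transcript, 18.4% also occurred in the Csf2rb2 transcript, and of the 75-base stretches 10.7% did. The stretch below is the 60-base coding window in which the copies differ most. Both lines are written 5′ to 3′ from GENCODE M21 transcripts, and capitals mark the 13 bases that differ.

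Csf2rb: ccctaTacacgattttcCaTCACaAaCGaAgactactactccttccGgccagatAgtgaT

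Csf2rb2: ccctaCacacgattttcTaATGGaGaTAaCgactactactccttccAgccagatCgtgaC

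The window spans coding bases 304 to 363 of Csf2rb and 307 to 366 of Csf2rb2. Even in this window, unbroken runs of lower-case letters are shared by both genes. The split of counts between the 2 copies is therefore uncertain, and their sum is given beside them.

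Csf3r and Flt3 were the members that passed the test between hosts, in opposite directions, so the bases upstream of their starts are shown. Sequences are from RefSeq on GRCm38.p6. Promoters of 4 of the 6 members were searched, and those of Csf1r and Csf2rb were not. Capitals mark GAGGAA, a core that PU.1-type ETS factors recognise, searched on both strands.

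Csf3r: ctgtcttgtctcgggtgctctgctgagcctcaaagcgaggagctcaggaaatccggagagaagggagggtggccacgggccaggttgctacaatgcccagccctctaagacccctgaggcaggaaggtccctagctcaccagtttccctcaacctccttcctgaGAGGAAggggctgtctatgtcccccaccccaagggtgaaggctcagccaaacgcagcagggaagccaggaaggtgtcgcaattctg

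Flt3: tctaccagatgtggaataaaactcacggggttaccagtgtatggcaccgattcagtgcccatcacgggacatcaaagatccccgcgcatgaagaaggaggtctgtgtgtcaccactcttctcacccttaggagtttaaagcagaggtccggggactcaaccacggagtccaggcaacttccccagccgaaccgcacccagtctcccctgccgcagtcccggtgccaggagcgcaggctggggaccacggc

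The Csf3r stretch is chr4:126024409-126024658 on the plus strand, and its single GAGGAA begins 86 bases before the start. The Flt3 stretch is chr5:147400490-147400739 on the minus strand and holds no such match. Within 250 bases before to 50 bases after the start, Csf2ra and Csf2rb2 each held 2 matches. Over 32851 RefSeq promoters of that length, 28.3% held GAGGAA. The letters TTGCNNAA, a C/EBP pattern, and a pair of GAAA spaced by any 2 bases, an IRF pattern, were found in none of the 4 windows, against 10.8% and 3.44% of all promoters. The match is a description of letters, and no binding was measured.

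Flt3 and Csf1r ran in opposite directions across the groups. Levels are given as CPM (read counts scaled to library depth with TMM factors), with mean ± SD over 2 libraries. Flt3 stood at 490.3 and 330.2 CPM in CD103+ DC1 replicates 2 and 3, at 145 and 91.3 CPM in Rag2-/- ISG+ DC replicates 2 and 3, and at 15.8 and 32.4 CPM in WT ISG+ DC replicates 1 and 2. Each group lay wholly below the one before it. Group means were 410.3 ± 113, 118 ± 37.9 and 24.1 ± 11.8 CPM (SD, n = 2 each).

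Csf1r, the M-CSF receptor, stood at 32.8 and 40.9 CPM in CD103+ DC1, at 436 and 620 CPM in Rag2-/- ISG+ DC, and at 1243 and 1121 CPM in WT ISG+ DC. Here each group lay wholly above the one before it, with means of 36.9 ± 5.72, 528 ± 130 and 1182 ± 86.2 CPM (SD, n = 2 each). Its estimated counts ran from 239 to 13909, so counting error was small beside the spread between libraries.

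**Figure D1:**
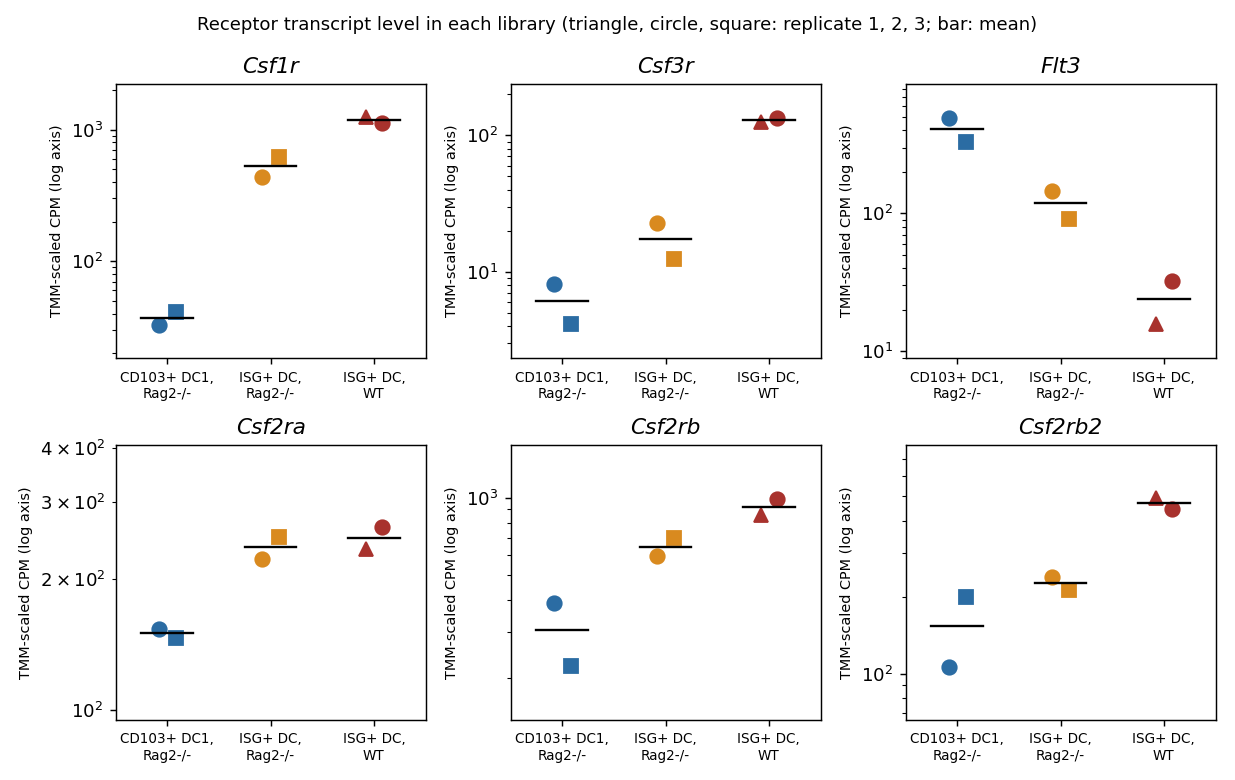
Transcript level of each receptor gene in every library, as TMM-scaled CPM on a log axis, with 1 panel per gene, markers for replicate numbers and a bar at the group mean. Flt3 steps down from a mean of 410.3 CPM in CD103+ DC1 to 24.1 CPM in WT ISG+ DC, while Csf1r steps up from 36.9 to 1182 CPM.

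Csf3r, the G-CSF receptor, was the member with the fewest reads. Its level was 8.05 and 4.11 CPM in CD103+ DC1, 22.5 and 12.3 CPM in Rag2-/- ISG+ DC, and 126 and 134 CPM in WT ISG+ DC. The WT libraries lay far above the other four, and the lower groups did not overlap either. Its lowest estimated count was 23.75, in CD103+ DC1 replicate 3.

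Csf2ra, the GM-CSF-binding chain, was the most even member. It stood at 153 and 147 CPM in CD103+ DC1, 223 and 250.5 CPM in Rag2-/- ISG+ DC, and 234 and 263 CPM in WT ISG+ DC. Both ISG+ DC groups lay above CD103+ DC1 and overlapped each other.

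Csf2rb, the common beta chain, stood at 389 and 222 CPM in CD103+ DC1, 593 and 698 CPM in Rag2-/- ISG+ DC, and 855 and 990.3 CPM in WT ISG+ DC. Csf2rb2 stood at 107 and 200.4 CPM, 241 and 214 CPM, and 492 and 447 CPM in the same order. Neither gene overlapped between any pair of groups, but the CD103+ DC1 replicates moved in opposite directions for the 2 copies. Summed over both, the level was 496 and 422 CPM in CD103+ DC1, 834 and 912 CPM in Rag2-/- ISG+ DC, and 1347 and 1438 CPM in WT ISG+ DC.

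ISG+ DC and CD103+ DC1, both from Rag2-/- hosts, were compared first. Here Csf1r rose and Flt3 fell in ISG+ DC, 2 of the 6 members, where 3.69% of all genes tested were called (2.83% higher, 0.862% lower). Tests were edgeR's quasi-likelihood test in 1 fit over all 6 libraries, two-sided, with Benjamini-Hochberg adjustment over all genes tested and a threshold of 0.05. All 6 members had groups that did not overlap, as did 45.9% of all genes tested. The median log2 fold change of the members was 0.87, against -0.02 over all genes.

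Csf1r was 14.3-fold higher in ISG+ DC, a log2 fold change of 3.84 ± 0.29 (SE; edgeR adjusted p = 1.54e-04), and it kept this call with each library left out in turn. Flt3 fell by 1.80 ± 0.39 on the log2 scale (edgeR adjusted p = 0.0321), which is 3.47-fold lower. That call was lost without Rag2-/- ISG+ DC replicate 3, where the log2 fold change was -1.50 (edgeR adjusted p = 0.220). Identity markers of the sorted cells moved in the same comparison: of 11 DC1 marker genes 10 fell, and of 8 markers of CD11b+ conventional DC 7 rose. The summed DC1 markers were at 11031 and 6523 CPM in CD103+ DC1 and at 1318 and 1545 CPM in Rag2-/- ISG+ DC, and their part in the receptor differences was not tested.

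The other 4 receptors did not pass the test in this comparison. Csf2rb had a log2 fold change of 1.08 ± 0.29 (SE; edgeR adjusted p = 0.0799), with a 95% interval of 0.44 to 1.72. It was called when CD103+ DC1 replicate 2 was left out, at 1.53, and when replicate 3 was, at 0.75. With the counts of Csf2rb and Csf2rb2 summed as 1 gene, the log2 fold change was 0.93 ± 0.22 (edgeR adjusted p = 0.0440). The summed beta chains therefore passed where neither copy did alone.

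Csf2ra had a log2 fold change of 0.66 with an interval of 0.10 to 1.21 (edgeR adjusted p = 0.236). Csf2rb2 was at 0.57, with an interval of -0.12 to 1.26 (edgeR adjusted p = 0.442), and was called without CD103+ DC1 replicate 3, at 1.12. Csf3r was at 1.49, with an interval of 0.43 to 2.56 (edgeR adjusted p = 0.148), and was called without CD103+ DC1 replicate 2, at 2.08. For Csf2rb2 and Csf3r a single CD103+ DC1 library thus decided the call, and the intervals of all 3 receptors allow differences of more than 1 on the log2 scale.

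The next comparison set ISG+ DC from WT hosts against ISG+ DC from Rag2-/- hosts. It shares the Rag2-/- ISG+ DC libraries with the first comparison, so a low library there raises one difference and lowers the other. Csf3r rose and Flt3 fell in WT hosts, 2 of the 6 members, where 0.552% of all genes tested were called (0.287% higher, 0.265% lower). The groups of 5 of the 6 members did not overlap, against 44.5% of all genes tested. The members' median log2 fold change was 0.78, beside -0.03 over all genes.

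Csf3r was 7.46-fold higher in WT ISG+ DC, a log2 fold change of 2.90 ± 0.49 (SE; edgeR adjusted p = 0.0350). The call was lost without Rag2-/- ISG+ DC replicate 2 (log2 fold change 3.40, edgeR adjusted p = 0.0833) and with replicate 3 of that group left out (2.53, edgeR adjusted p = 0.142). The difference stayed above 2 on the log2 scale in both cases, with fewer libraries behind it.

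Neutrophils are the best-known Csf3r-bearing cells, and their markers were measured beside it. Over the 11 neutrophil markers in the table, the summed level was 10.8 and 30.5 CPM in CD103+ DC1, 26.9 and 21.9 CPM in Rag2-/- ISG+ DC, and 21.8 and 32.6 CPM in WT ISG+ DC. Cxcr2, a chemokine receptor of neutrophils, made up much of these sums, at 4.39 and 29.6 CPM in CD103+ DC1, 16.1 and 21.5 CPM in Rag2-/- ISG+ DC, and 8.58 and 12.98 CPM in WT ISG+ DC. Mmp9 lay between 0 and 10.8 CPM. S100a8, Ngp, Camp and Elane had no count in any library, and S100a9 had 4.11 CPM in WT ISG+ DC replicate 1 and none elsewhere. Retnlg had 0.715 CPM in that library alone, and Mpo 0.179 and 1.397 CPM in WT ISG+ DC alone. Ltf had 2.06 CPM in CD103+ DC1 replicate 2 and none elsewhere. Mmp8, a neutrophil collagenase, was at 5.72 and 18.3 CPM in WT ISG+ DC and at most 0.126 CPM in the other four. It did not pass between hosts (edgeR adjusted p = 0.252), and it was named after its values were seen. S100a9, Retnlg, Mpo and Mmp8 thus had their highest levels in WT ISG+ DC, as Csf3r did, which the sums do not show. Cxcr2, Mmp9 and Ltf did not. The part of neutrophils in the Csf3r levels was not tested.

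Flt3 was 4.90-fold lower in WT ISG+ DC, a log2 fold change of -2.29 ± 0.41 (SE; edgeR adjusted p = 0.0411). The call was lost without Rag2-/- ISG+ DC replicate 2, at -1.92 (edgeR adjusted p = 0.138), and without WT ISG+ DC replicate 1, at -1.87 (edgeR adjusted p = 0.0602). Zbtb46, a factor characteristic of conventional DC, moved beside it, at 157 and 111 CPM in Rag2-/- ISG+ DC and 32.2 and 52.3 CPM in WT ISG+ DC. Its log2 fold change of -1.66 did not pass (edgeR adjusted p = 0.0534). Zbtb46 is 1 of 5 general DC markers, of which edgeR called none between hosts, with 4 at an unadjusted p under 0.05 and a list median of -0.87, and DESeq2 called 2 lower. With either CD103+ DC1 library left out edgeR called 3 of them lower, and with WT ISG+ DC replicate 2 left out 1. The others were Dpp4 at -1.12, Kmo at -0.87 and Itgax at -0.63, each without overlap between hosts, and H2-Ab1, an MHC class II gene, at 0.10.

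Csf1r had a log2 fold change of 1.16 ± 0.26 between hosts, with an interval of 0.59 to 1.73, and did not pass (edgeR adjusted p = 0.0821). It was called without either CD103+ DC1 library, although those libraries are not in the contrast, and with only the 4 ISG+ DC libraries fitted, at 1.16. Over the 14 macrophage and monocyte markers, the summed level was 748 and 964 CPM in CD103+ DC1, 3008 and 4739 CPM in Rag2-/- ISG+ DC, and 9451 and 9628 CPM in WT ISG+ DC. Of these 14 markers 10 rose in ISG+ DC over CD103+ DC1. Between hosts 1 rose, Apoe, which encodes apolipoprotein E, at 7.63-fold (edgeR adjusted p = 0.0194), and 12 of the 14 had groups that did not overlap, 10 with the higher level in WT hosts. Fcgr1 (-0.32) and Ly6c2 (-1.49) were lower in WT ISG+ DC without overlap and did not pass, while Ccr2 (-0.04) and Cd163 (-0.38) overlapped. The count between hosts was higher without either CD103+ DC1 library, WT ISG+ DC replicate 1 or Rag2-/- ISG+ DC replicate 3. No marker was called without Rag2-/- ISG+ DC replicate 2. The number of all genes called between hosts also varied with the library left out. The summed level of the macrophage and monocyte markers was ordered across the groups as Csf1r and Csf3r were. The 8 markers of CD11b+ conventional DC had the same order, at 154 and 133 CPM in CD103+ DC1. They were at 2589 and 3106 CPM in Rag2-/- ISG+ DC and 3224 and 3337 CPM in WT ISG+ DC. None of those 8 was called between hosts, with a list median log2 fold change of -0.36. The part of either list in the results was not tested.

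Csf2rb2 was at 1.04 ± 0.31 between hosts, with an interval of 0.35 to 1.74 (edgeR adjusted p = 0.217). Like Csf1r, it was called without either CD103+ DC1 library and with only the 4 ISG+ DC libraries, at 1.04. Csf2rb was at 0.52, with an interval of -0.12 to 1.15 (edgeR adjusted p = 0.638). Csf2ra was at 0.07, and its interval of -0.48 to 0.62 spans both directions (edgeR adjusted p = 0.983). With Rag2-/- ISG+ DC replicate 2 left out, Csf3r and Flt3 lost their calls between hosts, and no other member gained one. The number of all genes called between hosts also varied with the library left out.

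**Figure D2:**
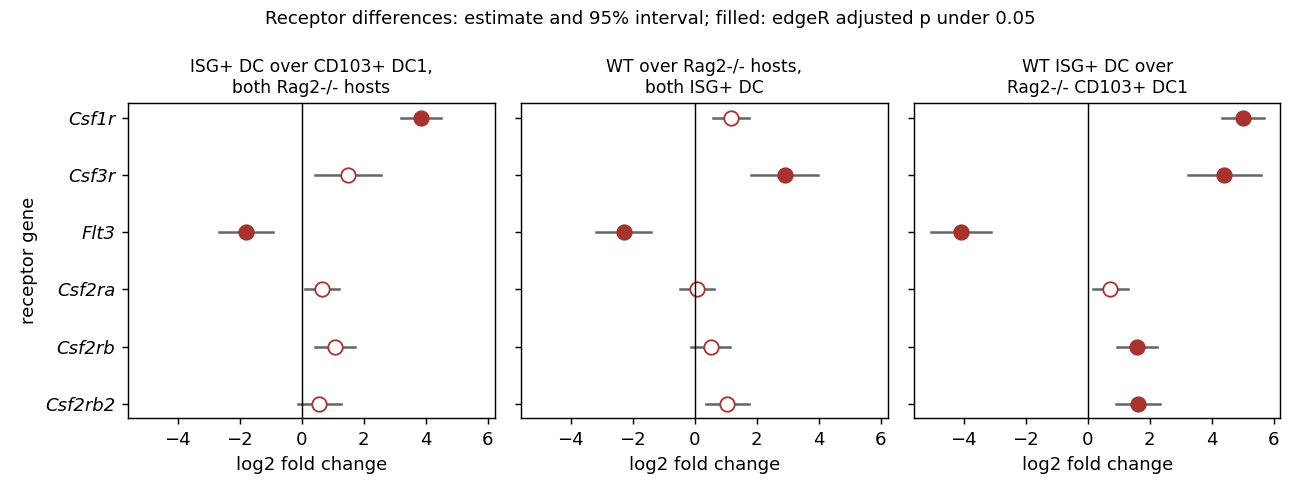
Log2 fold change of each receptor gene with its 95% interval in the 3 comparisons, filled where the edgeR adjusted p was under 0.05. Csf1r (3.84) and Flt3 (-1.80) are filled for the DC populations, Csf3r (2.90) and Flt3 (-2.29) for the hosts, and every receptor but Csf2ra for WT ISG+ DC over Rag2-/- CD103+ DC1.

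WT ISG+ DC against Rag2-/- CD103+ DC1 differ in population and host together, and these effects cannot be told apart in it. Its libraries are shared with the comparisons above. Here 5 of the 6 members were called (4 higher, 1 lower), where 9.14% of all genes tested were called (5.52% higher, 3.62% lower). Csf1r was 32.1-fold higher (edgeR adjusted p = 4.04e-05) and Csf3r 21.0-fold higher (edgeR adjusted p = 6.58e-04). Flt3 was 17.0-fold lower, a log2 fold change of -4.09 ± 0.44 (edgeR adjusted p = 3.42e-04).

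The beta chains rose by similar amounts in that comparison, Csf2rb 3.02-fold (edgeR adjusted p = 0.00689) and Csf2rb2 3.06-fold (edgeR adjusted p = 0.00985). Csf2rb2 was not called with only the 4 libraries of the contrast fitted, at a log2 fold change of 1.60 (edgeR adjusted p = 0.0541). Csf2ra, at 0.73, missed the threshold (edgeR adjusted p = 0.113) and was called without CD103+ DC1 replicate 2, at 0.75. All 6 members had groups that did not overlap, as did 51.4% of all genes tested.

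Ratios within a library do not depend on how libraries are scaled to each other. The ratio of Csf1r to Flt3 estimated counts was 0.0670 and 0.124 in CD103+ DC1, 3.01 and 6.79 in Rag2-/- ISG+ DC, and 78.6 and 34.6 in WT ISG+ DC. The balance of the 2 tyrosine kinase receptors thus favoured Flt3 in both CD103+ DC1 libraries and Csf1r in all 4 ISG+ DC libraries, without correction for transcript length. Csf2rb2 made up 21.5% and 47.5% of the summed beta-chain counts in CD103+ DC1, 28.9% and 23.5% in Rag2-/- ISG+ DC, and 36.5% and 31.1% in WT ISG+ DC. That share overlapped between CD103+ DC1 and both other groups. The summed beta chains per Csf2ra count were 3.23 and 2.88, 3.75 and 3.64, and 5.76 and 5.47 in the same order, rising from group to group with no overlap.

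**Figure D3:**
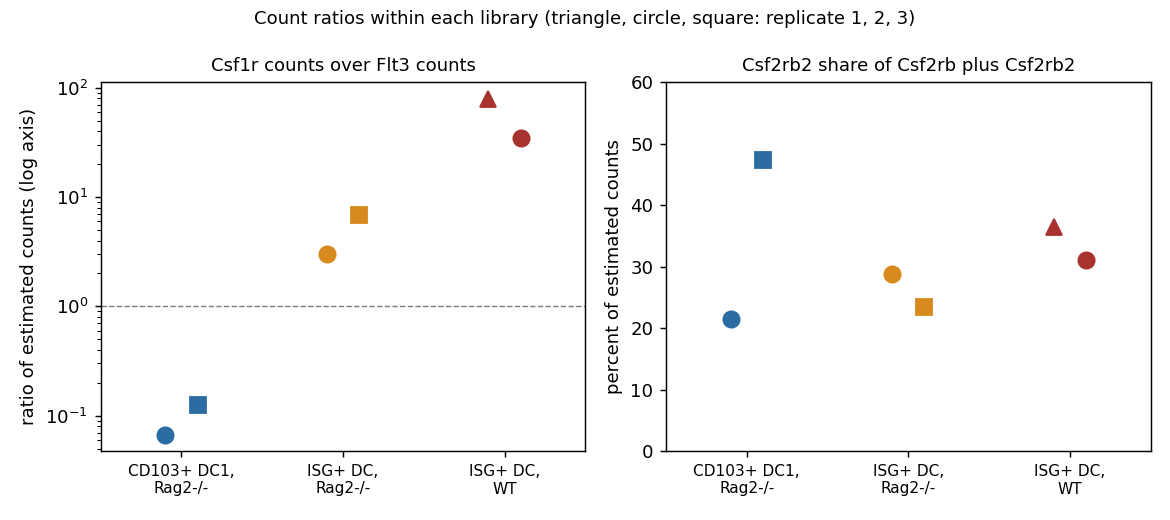
Count ratios within each library, with the ratio of Csf1r to Flt3 estimated counts on a log axis (left) and the percent of Csf2rb plus Csf2rb2 counts that were Csf2rb2 (right). The Csf1r to Flt3 ratio climbs from at most 0.124 in CD103+ DC1 to at least 34.6 in WT ISG+ DC, while the Csf2rb2 share of CD103+ DC1 spans 21.5% to 47.5%.

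To order the receptors against each other, CPM was divided by the length of the longest coding transcript in GENCODE M21, which is not the annotation of the deposited table. In CD103+ DC1, Flt3 led at 90.3 to 134 CPM per kb, above Csf2ra at 79.4 to 83.0 and Csf2rb at 45.3 to 79.5. Csf2rb2 at 22.5 to 42.3, Csf1r at 6.99 to 8.71 and Csf3r at 1.18 to 2.31 CPM per kb followed. The ranges of Csf2ra and Csf2rb overlapped at their ends, and the remaining neighbours were apart.

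Among Rag2-/- ISG+ DC, 3 receptors shared the top: Csf2rb at 121 to 142, Csf2ra at 120.4 to 135 and Csf1r at 92.8 to 132 CPM per kb. Their ranges overlapped, so they had no order among them. Csf2rb2 at 45.2 to 50.9, Flt3 at 24.96 to 39.6 and Csf3r at 3.54 to 6.47 CPM per kb lay below without overlap.

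For WT ISG+ DC, Csf1r led at 238 to 264 CPM per kb, and Flt3 came last at 4.33 to 8.87. Between them stood Csf2rb at 174 to 202, Csf2ra at 127 to 142, Csf2rb2 at 94.4 to 104 and Csf3r at 36.2 to 38.6 CPM per kb, with no overlap between neighbours. Flt3 thus moved from first to last place per length, and Csf1r from next to last to first.

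**Figure D4:**
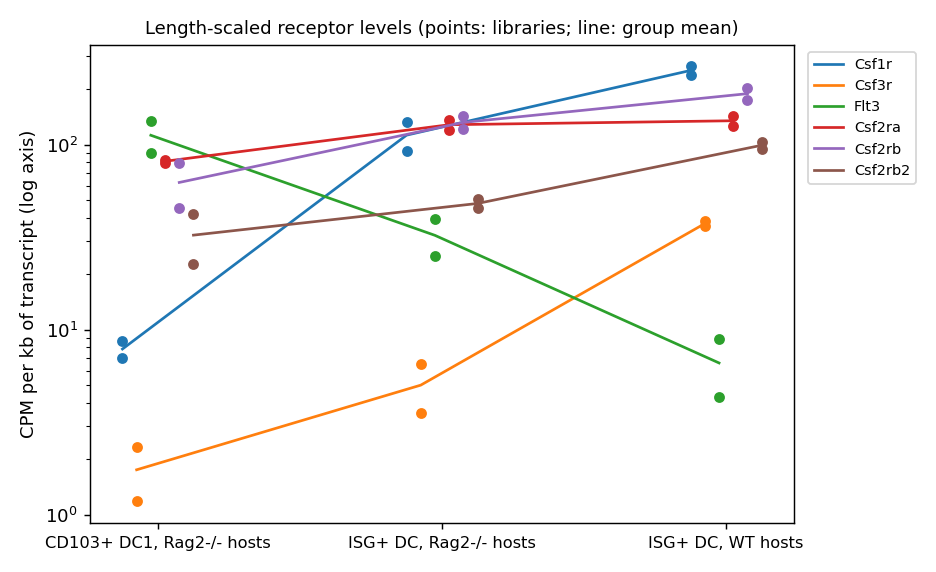
Receptor levels as CPM per kb of transcript on a log axis in the 3 groups, with points for libraries and lines through group means. The Flt3 line falls from 112 to 6.60 CPM per kb and crosses the Csf1r line, which climbs from 7.85 to 251 CPM per kb.

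The ligands of these receptors were at low level or absent in the sorted cells. Csf2 (GM-CSF), Csf3 (G-CSF), Il3 and Il5 had no count in any of the 6 libraries, which allows up to 0.189 to 0.514 CPM by a limit of 3 counts a library, for counting error only. Csf1 (M-CSF) was at 69.8 and 28.1 CPM in CD103+ DC1, 68.7 and 39.9 CPM in Rag2-/- ISG+ DC, and 40.7 and 6.59 CPM in WT ISG+ DC, with all groups overlapping. Marker genes of fibroblasts and the tumor line, summed over 6 genes, were at 967 and 413, 1003 and 619, and 341 and 38.6 CPM in the same order. Csf1 and these markers were thus lowest in the same library, WT ISG+ DC replicate 2, and the part of other cells in Csf1 was not tested. Flt3l lay between 3.79 and 15.8 CPM, Kitl between 4.74 and 10.4 CPM, and Il34 between 0 and 6.51 CPM. Of the 4 ligands tested, none was called by edgeR in any of the 3 comparisons, none had an unadjusted p under 0.05, and DESeq2 called none. Without WT ISG+ DC replicate 1, edgeR called 1 ligand lower in WT ISG+ DC against Rag2-/- CD103+ DC1.

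Receptors related to the members were also low, Kit apart. Kit, the stem cell factor receptor and a close relative of Flt3 and Csf1r, was at 148 and 106 CPM in CD103+ DC1, 69.7 and 45.2 CPM in Rag2-/- ISG+ DC, and 40.9 and 53.2 CPM in WT ISG+ DC. CD103+ DC1 lay above both ISG+ DC groups, which overlapped. The difference passed for WT ISG+ DC against Rag2-/- CD103+ DC1, at a log2 fold change of -1.43 (edgeR adjusted p = 0.0402), and not for ISG+ DC over CD103+ DC1, at -1.14 (edgeR adjusted p = 0.156). It was lost without WT ISG+ DC replicate 1 (-1.26), WT ISG+ DC replicate 2 (-1.64) or Rag2-/- ISG+ DC replicate 2 (-1.43). Il3ra, the chain that pairs with the beta chains for IL-3, lay between 5.98 and 17.3 CPM, and Il5ra between 1.07 and 9.59 CPM. Epor had no count in any library. Pdgfra was at 43.6 and 0.51 CPM in CD103+ DC1, 23.2 and 6.13 CPM in Rag2-/- ISG+ DC and 0 in both WT libraries. It passed the test for WT ISG+ DC against Rag2-/- CD103+ DC1 (edgeR adjusted p = 0.0312), a call lost without CD103+ DC1 replicate 2, and no fold is given against 0. The summed fibroblast and tumor markers given above were also lowest in the WT libraries, and the part of other cells in Pdgfra was not tested. Pdgfrb lay between 0.60 and 40.9 CPM, with all groups overlapping.

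Behind the receptors, 22 genes of receptor-proximal signalling were tested. In ISG+ DC over CD103+ DC1, 4 rose and none fell, with a list median log2 fold change of 0.48. Among those that rose were the kinase genes Fgr (15.7-fold, edgeR adjusted p = 5.99e-04) and Syk (3.77-fold, 0.00194), and Tyrobp (7.46-fold, 0.00104), which encodes the adaptor DAP12. Those 3 also rose in WT ISG+ DC over Rag2-/- CD103+ DC1, where 4 genes of the list were called. Without CD103+ DC1 replicate 2, more genes of the list rose in both of these comparisons. The number of all genes called also varied with the library left out. Jak2, the kinase that GM-CSF receptor signalling starts from, was level across libraries at 309 to 426 CPM, and passed in no comparison. Stat5a lay between 35.1 and 73.0 CPM and Stat5b between 59.3 and 124 CPM, and neither passed.

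Negative regulators, 17 tested, gave 4 that rose in ISG+ DC over CD103+ DC1. Socs3, a cytokine-induced inhibitor that acts on the G-CSF receptor among others, was 2.89-fold higher (edgeR adjusted p = 0.0184). Its level was 38.8 and 46.9 CPM in CD103+ DC1, 150.4 and 97.2 CPM in Rag2-/- ISG+ DC, and 335 and 349 CPM in WT ISG+ DC, with no overlap between groups. Spred1 (3.29-fold, edgeR adjusted p = 0.0148) and Dusp6 (5.99-fold, 0.0249), inhibitors of the Ras-ERK path, and Dok2 (edgeR adjusted p = 0.0184), an adaptor that dampens tyrosine kinases, rose too. Dok2 was at 5.12 CPM and 0 in CD103+ DC1 and at 62.8 and 100.1 CPM in Rag2-/- ISG+ DC. Its log2 fold change ran from 4.01 without CD103+ DC1 replicate 3 to 12.85 with CD103+ DC1 replicate 2 left out, and is no measure of its size against 0. That of Dusp6 was 1.96 and 3.86 with the same libraries left out. Socs3 was lost without Rag2-/- ISG+ DC replicate 2 (log2 fold change 1.18) and Spred1 without Rag2-/- ISG+ DC replicate 3 (1.38). The count was 7 without CD103+ DC1 replicate 2 and 0 with only the 4 libraries of the contrast fitted. Cish, a Stat5 target, was at 8.71 and 1.03 CPM, 9.95 and 14.0 CPM, and 30.2 and 32.4 CPM in the same group order and did not pass in ISG+ DC over CD103+ DC1 (log2 fold change 1.26, edgeR adjusted p = 0.588).

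Between hosts, none of the signalling genes and none of the negative regulators was called by edgeR. Unadjusted p was under 0.05 for 1 and 2 of them, and DESeq2 called 0 and 1. Without CD103+ DC1 replicate 3, edgeR called 1 signalling gene between hosts, and without either CD103+ DC1 library it called 2 negative regulators (1 higher, 1 lower).

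Transcription factors that set myeloid and DC identity, and act on genes such as Csf1r and Flt3, were tested as a list of 18. In ISG+ DC over CD103+ DC1, 6 rose and 2 fell. Irf4, a factor of CD11b+ conventional DC, had a log2 fold change of 3.33 (edgeR adjusted p = 0.00331). Irf8, on which DC1 depend, fell by 2.93 on the log2 scale (edgeR adjusted p = 0.00188) and Id2 fell by 2.50 (8.12e-04). Cebpa, Cebpb, Runx1 and Klf4 were also among those that rose. Runx1 lost the call without either Rag2-/- ISG+ DC library, Klf4 without any 1 of the 4 ISG+ DC libraries of both hosts, and the count of factors that rose was 3 with only the 4 libraries of the contrast fitted. Sfpi1, which encodes PU.1, a known activator of Csf1r and Csf2ra, was at 161 and 163 CPM in CD103+ DC1, 302 and 321 CPM in Rag2-/- ISG+ DC, and 290 and 338 CPM in WT ISG+ DC. It lay higher in both ISG+ DC groups and did not pass in ISG+ DC over CD103+ DC1 (log2 fold change 0.94, edgeR adjusted p = 0.0687). Sfpi1 passed for WT ISG+ DC over Rag2-/- CD103+ DC1 (0.95, edgeR adjusted p = 0.0360). Leaving out each library in turn gave 0.83 to 1.06 there, and 4 of the 6 fits lost the call.

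Between hosts 1 factor of the 18 rose, Cebpb, a C/EBP family factor of monocytes and of emergency granulopoiesis. Its level was 32.6 and 16.4 CPM in CD103+ DC1, 85.8 and 121 CPM in Rag2-/- ISG+ DC, and 552 and 549 CPM in WT ISG+ DC. The WT libraries were close to each other and above all others, an order shared with Csf3r. Cebpb was 5.33-fold higher in WT ISG+ DC, a log2 fold change of 2.41 ± 0.35 (SE; edgeR adjusted p = 0.0194). The call was lost without Rag2-/- ISG+ DC replicate 2, at 2.19 (edgeR adjusted p = 0.106). Without either CD103+ DC1 library, 5 factors rose and 2 fell between hosts, and DESeq2 called 5 higher and 1 lower.

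**Figure D5:**
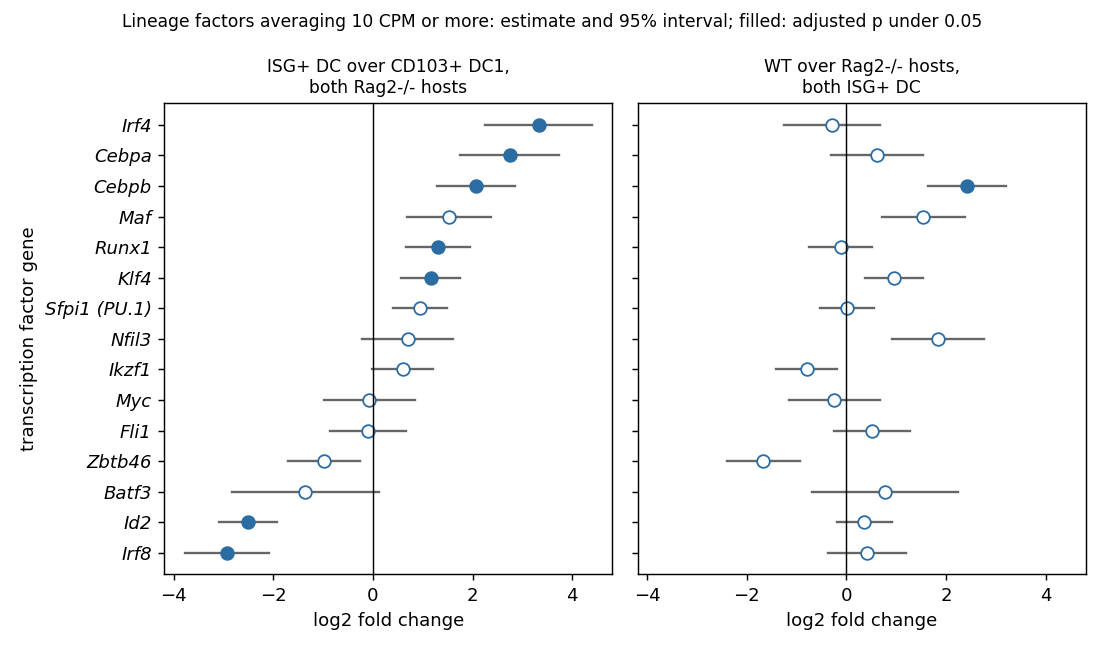
Log2 fold change with 95% interval for 15 lineage factors averaging 10 CPM or more, for the DC populations (left) and the hosts (right), filled where the edgeR adjusted p was under 0.05. On the left Irf4 (3.33) stands highest and Irf8 (-2.93) and Id2 (-2.50) lowest, and on the right only Cebpb (2.41) is filled.

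Survival and growth genes downstream of these receptors, 10 tested, gave 1 that rose in ISG+ DC over CD103+ DC1. That was Ccnd2, which encodes cyclin D2, at 6.42-fold (edgeR adjusted p = 0.00143). Its level was 164 and 92.2 CPM in CD103+ DC1, 799 and 848 CPM in Rag2-/- ISG+ DC, and 317 and 239 CPM in WT ISG+ DC, highest in the middle group of Csf1r and Flt3. The count was 5 (4 higher, 1 lower) with CD103+ DC1 replicate 2 left out and 2 with its replicate 3 left out. None was called between hosts by edgeR, with 5 at an unadjusted p under 0.05, and DESeq2 called 4 (1 higher, 3 lower). Ccnd2 was at -1.57 there (edgeR adjusted p = 0.0516). Leaving out a library gave calls between hosts in 3 cases: CD103+ DC1 replicate 2 (1 higher, 3 lower), CD103+ DC1 replicate 3 (2 higher, 3 lower) and WT ISG+ DC replicate 1 (2 lower). Against Rag2-/- CD103+ DC1, WT ISG+ DC had higher Mcl1 (2.45-fold, edgeR adjusted p = 0.00449), a survival gene, and higher Pim1 (2.73-fold, 0.0173), a Stat5 target, beside Ccnd2. There Pim1 lost the call without WT ISG+ DC replicate 2 (log2 fold change 1.395), and Ccnd2 without WT ISG+ DC replicate 1 (0.90) or either Rag2-/- ISG+ DC library (1.12).

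Genes with the pattern most like each receptor were listed by Pearson correlation of log2(CPM + 1) over the 6 libraries, among 8113 tested genes averaging 10 CPM or more. The 6 libraries form 3 groups and share their depth and scaling, so the correlation is a description. Closest to Flt3 were Baz1a (r = 0.997), Nucks1, Zbtb46 and Hist1h1a (0.992 each), and 85 genes reached 0.95. Nearest to Csf1r were Vamp4, Ccdc109b, Cfb and Snx18 (0.998 or above), and 289 genes reached 0.95.

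Csf3r was matched best by Zmym6 (0.995), Adam17 (0.993), Eif4e3 and Pla2g15 (0.992 each), with 115 genes at 0.95 or above. The Csf2rb list was Ptprj, Sdc3, Txndc12 (0.997, 0.997 and 0.996) and Itgb2 (0.995), and that of Csf2rb2 was Atg4c (0.998), Hif1a (0.992), Pla2g4a (0.991) and Naglu (0.987). For Csf2rb 336 genes reached 0.95 and for Csf2rb2 45. Csf2ra was followed by Bach1 (0.998), Arhgef2 (0.997), Metrnl (0.995) and a gene whose symbol the table holds as a calendar date, and 271 genes reached 0.95. None of the 4 genes named for a receptor was among the 4 named for another, and overlap among the longer lists was not examined.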

How the data were processed

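Bulk RNA-seq of 6 libraries in 3 groups of 2 was used. The authors deposited unnormalized estimated counts, 1 row a gene symbol. Bowtie 1.2.3, RSEM 1.3.1 and the build mm9 are listed in the submitters' processing notes. Annotation and strand setting: not given in the sources used here. Per the labels' protocols a stranded total RNA kit for low input was used, although the labels' molecule field names polyA RNA. RSEM shares reads between near copies by a model, so the split of Csf2rb and Csf2rb2 is uncertain.

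Estimated counts (16.1% not whole) were rounded, then tested with edgeR 4.0.16 under R 4.3.3: filterByExpr, TMM and 1 quasi-likelihood fit over all groups, with 3 residual degrees of freedom, a prior of 7.34 and a common biological coefficient of variation of 0.703. The standard error came from the F statistic. The procedure was also run on simulated data with known fold changes. Their spread was set lower than the one fitted here, and the outcome is not reported. Totals ran from 6023510 to 15368616 per library. Limits from 3 counts cover counting error only, since reads carry no molecular identifiers.

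The members and gene lists were chosen with earlier results of these data known. All members, ligands and related receptors are named. From other lists at most the 4 called genes with the smallest p per comparison are named, from marker lists up to 3 of the highest and every defining marker at 0, and for each member the 4 most correlated genes. Some genes of these lists are counted but not reported by name here. Genes beside these were named after their values were seen. Alternatives were DESeq2 1.42.0, other scalings and filters, the contrast's own libraries, summed beta chains, a replicate block and leaving out each library. Running them on the gene lists was added after seeing the data. The number of all genes called changed with the library left out. Counts of list genes in those fits are therefore not read as results about the lists. The labels do not say whether the replicate numbers pair the libraries, so the main fit had no replicate block. Coding alignments used Biopython 1.88. No Csf1r sequence is shown.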

Additional observations from a re-analysis of the deposited data

How the results depend on the processing

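Of 225 member results recomputed under the alternatives, 197 kept their direction and side of the threshold, 6 lost a call, 19 gained one and 3 changed sign. Leaving out each library in turn, the ranges of log2 fold changes for ISG+ DC over CD103+ DC1 were 0.75 to 1.53 for Csf2rb, 0.18 to 1.12 for Csf2rb2, 0.995 to 2.08 for Csf3r and -2.17 to -1.49 for Flt3. Between hosts they were 0.93 to 1.44 for Csf1r, -0.021 to 0.16 for Csf2ra, 0.96 to 1.13 for Csf2rb2, 2.53 to 3.40 for Csf3r and -2.91 to -1.87 for Flt3. For WT ISG+ DC over Rag2-/- CD103+ DC1, Csf2ra ranged from 0.64 to 0.81. Genes called ranged from 278 to 2068, 27 to 801 and 837 to 2754 in these 3 comparisons, against 488, 73 and 1209 in full, and members called from 1 to 4 and 0 to 4 in the first and second.

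With no filter on low counts, 1087, 555 and 1890 genes were called, and 4 members in each of the first and second comparisons: Csf2rb (1.08) and Csf3r (1.49) for the populations and Csf1r (1.16) and Csf2rb2 (1.04) for the hosts were gained. DESeq2 called 1078, 545 and 2082 genes, gaining Csf2rb (1.04), Csf1r between hosts (1.18) and Csf2ra for WT ISG+ DC over Rag2-/- CD103+ DC1 (0.70). With only the libraries of each contrast, 297, 444 and 683 genes were called. That fit gained Csf1r (1.16) and Csf2rb2 (1.04) between hosts, 4 members in all, and lost Csf2rb2 for WT ISG+ DC over Rag2-/- CD103+ DC1 (1.60). Summing Csf2rb and Csf2rb2 gave 0.93 for the populations. Scaling by total counts moved Csf2ra between hosts to -0.0080. The cause of these changes was not tested beyond the changed number of genes or libraries.

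Same-numbered libraries of the Rag2-/- groups did not deviate together (r = -0.0024 over 13223 genes). That correlation cannot decide whether they came from a shared experiment. With a replicate block, 659 genes and 2 members were called, Csf1r at 3.82 and Flt3 at -1.81. No paired analysis was possible for the other comparisons because their groups share only 1 number. Of 43 calls on pathway genes, 532 repeats kept 488 and lost 44. With 2 libraries a group, and Csf3r at 23.75 to 121 counts in CD103+ DC1, small differences were not detectable at this depth.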
